A study of Homo sapiens with 10 samples.

Results

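ANGPTL4, its relative ANGPTL2 and 7 genes for lipases and the proteins that fold, cleave or bind them were followed in PC3 cells kept with bone marrow adipocytes. The 9 genes were the rows of the gene tables with the symbols ANGPTL4, ANGPTL2, LPL, LIPG, LMF1, LMF2, FURIN, VLDLR and LRP1, out of 60558 genes listed, and all 9 were found in every table. PC3 is an established, androgen-independent human prostate cancer line grown from a bone metastasis, labelled as wild type, and all libraries come from this single line. In the cocultivated group (n = 5 libraries) the cells had shared their culture with adipocytes of human bone marrow for 3 days, and the non-cocultivated group (n = 5) had none. Each of the batches 1 to 5 in the labels holds 1 library of each group, and values are given below in the order of these batches. Nothing in the labels tells whether the 5 libraries of a group are separate cultures, so the p-values measure only the spread between these libraries.

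Lipoprotein lipase (LPL) is made in fat and muscle cells, folded in the endoplasmic reticulum with the help of LMF1, and carried to the wall of capillaries, where it releases fatty acids from the triglycerides of circulating lipoproteins. ANGPTL4 is a secreted protein that unfolds and inactivates the lipase, and fatty acids induce its gene through the PPAR receptors. Proprotein convertases such as furin cut both the lipases and the angiopoietin-like proteins, and VLDLR and LRP1 take up lipoproteins and the lipase bound to them.

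Libraries held 39074949 to 51515712 expected counts, the numbers of reads that RSEM assigned to genes. At this depth 3 counts, taken here as the floor of detection, equal 0.0582 to 0.0768 CPM (counts scaled to a library of 1000000). Of the markers checked for the line, KLK3 had no count in any library, KLK2 stayed at or under 3 counts, and vimentin was among the abundant ones, at 1745 ± 192 CPM in cocultivated and 1596 ± 99.2 CPM in non-cocultivated libraries (mean ± SD, n = 5 each). The adipocytes were human too, so reads from them and from PC3 cells cannot be separated by species. The labels do not state how, or whether, PC3 cells were kept or sorted apart from the adipocytes, so values of cocultivated cells may include adipocyte RNA.

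Of the 9 genes, 7 passed the filter on low counts and LPL and LIPG did not. Among these 7, ANGPTL4, VLDLR, LRP1, FURIN and LMF1 were higher in cocultivated cells, ANGPTL2 was lower, and LMF2 did not pass the test (edgeR quasi-likelihood test, Benjamini-Hochberg adjusted p under 0.05 over 15690 genes). At the same threshold 33.6% of all tested genes were called, 17.9% as higher and 15.8% as lower. The change was at least 2-fold for ANGPTL4 and VLDLR, against 4.09% of all tested genes. The values of the groups did not overlap for ANGPTL4, VLDLR and FURIN, all higher in cocultivated cells, against 13.7% of all tested genes; in either direction the groups did not overlap for 25.4% of them.

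**Figure D1:**
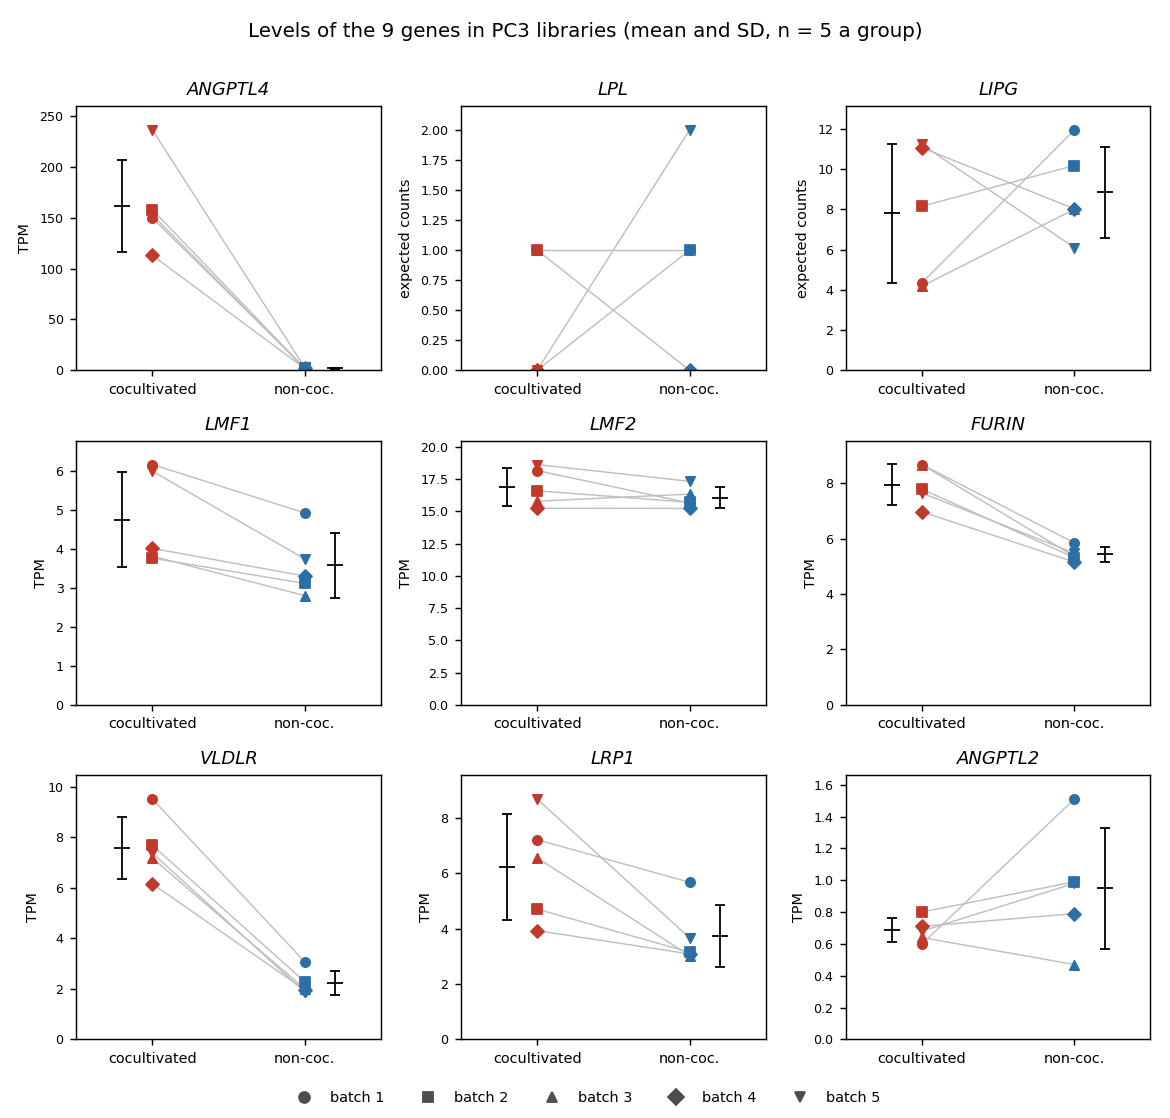
Level of each of the 9 genes in each library, in TPM (transcripts, corrected for length, per 1000000) or, for LPL and LIPG, in expected counts, with cocultivated libraries at the left (red) and non-cocultivated ones at the right (blue). Symbols and lines join the libraries of a batch and black bars give the mean and SD of 5 libraries (none for LPL); the cocultivated ANGPTL4 values, from 113.01 to 236.29 TPM, all lie above the non-cocultivated ones, from 1.46 to 2.77 TPM.

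ANGPTL4 (ENSG00000167772) lies on the forward strand of chromosome 19. The 250 bases before its start in RefSeq (GRCh38.p14, chr19:8363905-8364154, forward strand) are shown because ANGPTL4 had the strongest response. Capitals mark, on either strand, the letters TATAAA (the TATA box), GGGCGG (a GC box) and ACGTG (the core of the hypoxia response element).
ANGPTL4 promoter: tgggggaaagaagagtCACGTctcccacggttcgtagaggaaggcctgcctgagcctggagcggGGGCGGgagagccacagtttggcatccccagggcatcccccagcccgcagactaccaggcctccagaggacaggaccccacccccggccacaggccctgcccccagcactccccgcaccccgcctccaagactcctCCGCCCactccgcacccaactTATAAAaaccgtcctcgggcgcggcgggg
The TATAAA match begins 29 bases before the start. GGGCGG was found at 186 and 50 bases before the start, the nearer match on the reverse strand, and ACGTG at 234 bases, also on the reverse strand. The hexamers AGGTCA, bound by nuclear receptors, and TGTTCT, bound by the glucocorticoid receptor, were not in these letters on either strand, nor was the PPAR direct repeat, in which AGGTCA stands 2 times with any 1 base between. Of 34943 RefSeq promoter windows of the same length, 10.8% hold the TATA box, 42.5% the GC box, 18.5% the hypoxia core, 12.1% the nuclear receptor hexamer, 12.4% the glucocorticoid receptor hexamer and 0.0172% the direct repeat.

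Cocultivated libraries held 7576, 8018, 6859, 6379 and 14194 counts of ANGPTL4, against 135, 108, 71, 90 and 153 in non-cocultivated libraries. Scaled for depth, these were 168.7, 195.8, 178.1, 141.5 and 312.8 CPM in cocultivated cells and 2.532, 2.092, 1.692, 2.136 and 3.284 CPM in non-cocultivated cells. All cocultivated values were far above all non-cocultivated ones, and batch 5 was the highest of both groups. The mean was 199 ± 66.4 CPM in cocultivated and 2.35 ± 0.602 CPM in non-cocultivated cells (SD, n = 5 each), a ratio of 85.0. The fitted log2 fold change was 6.40 ± 0.25 (SE), with an edgeR adjusted p of 4.97e-09, and no other of the 15690 tested genes had a higher one. Within batches the ratio was between 66.25 in batch 4 and 105.3 in batch 3, so that every batch showed the direction with a similar size. In bulk RNA, a change in the number of cells that carry a transcript and a change in the amount per cell cannot be told apart.

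Per length, ANGPTL4 had 149.72, 157.88, 152.75, 113.01 and 236.29 TPM in cocultivated libraries and 2.29, 1.84, 1.46, 1.76 and 2.77 TPM in non-cocultivated libraries. In cocultivated cells it thus stood between place 598 and place 1344 of all genes by TPM, with 2.44% to 5.72% of the detected genes above it. In non-cocultivated cells it stood between place 11126 and place 12351, with 46.02% to 52.45% of the detected genes above it. ANGPTL4 therefore lay near the middle of the detected genes without adipocytes and among the more abundant ones with them.

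An antisense gene, RAB11B-AS1, overlaps ANGPTL4 in the GENCODE v29 annotation and had 1.89 ± 0.240 CPM in cocultivated and 1.301 ± 0.235 CPM in non-cocultivated libraries (log2 fold change 0.58, edgeR adjusted p 0.00531). Even in cocultivated libraries its level was a small part of that of ANGPTL4. The kit was stranded per the labels' protocols, and whether the strand was used in counting is not given in the sources used here.

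**Figure D2:**
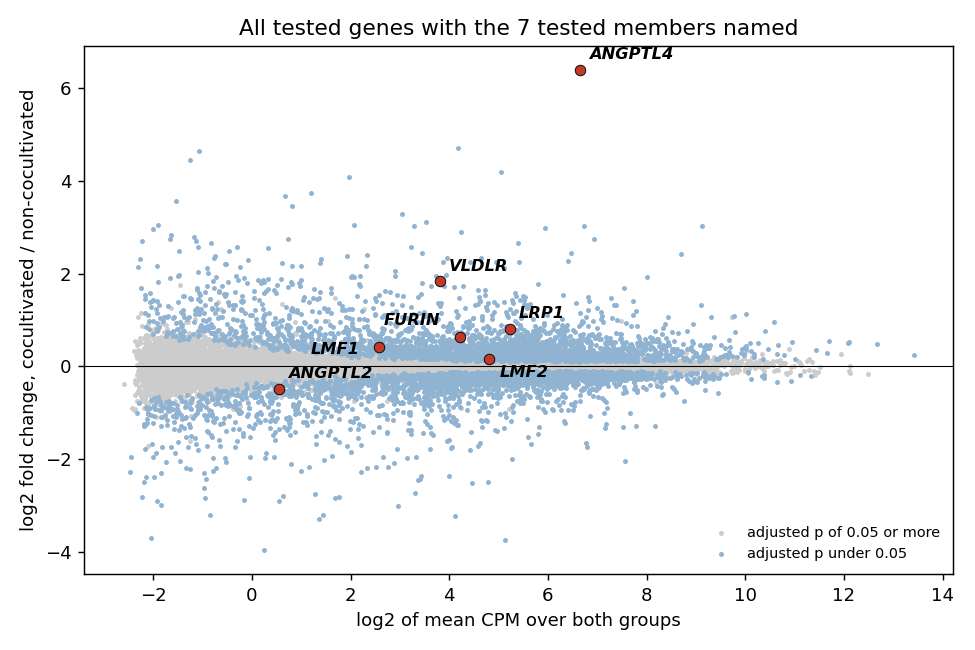
Fitted log2 fold change (cocultivated over non-cocultivated) of the 15690 tested genes against the log2 of their mean CPM over both groups, with the 7 tested genes of the lipase axis in red and named. Blue dots have an adjusted p under 0.05 and grey ones do not; ANGPTL4, at 6.40, is the highest point of the plot.

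Adipocyte transcripts were looked at beside these values. The 14 adipocyte markers summed to 367.8 to 503.9 CPM in cocultivated libraries and 287.3 to 328.8 CPM in non-cocultivated libraries, and of the 9 that could be tested 5 were higher and 2 lower. ADIRF, 1 of those 5, had a log2 fold change of 0.18 ± 0.05 (edgeR adjusted p 0.0156). Its call was lost with scaling by library totals, under both TPM fits and without batch 2, 3 or 4 (adjusted p 0.0541 to 0.283). FABP4, a fatty acid carrier that is also expressed outside fat, had 149 ± 50.5 CPM in cocultivated and 27.1 ± 9.70 CPM in non-cocultivated cells (log2 fold change 2.46 ± 0.25, edgeR adjusted p 7.22e-06). The droplet protein gene PLIN4 and the hormone-sensitive lipase gene LIPE were called higher too, with log2 fold changes of 1.11 ± 0.10 (adjusted p 2.07e-06) and 0.69 ± 0.13 (adjusted p 0.00145). PLIN4 had 49.0 ± 8.09 CPM in cocultivated and 22.7 ± 1.40 CPM in non-cocultivated cells. ADIPOQ, which encodes adiponectin and defines mature adipocytes, had no count in any cocultivated library, CIDEA had none in any library, and LEP never passed 3 counts. The droplet protein PLIN1 had 5 to 14 counts in cocultivated and 11 to 18 counts in non-cocultivated libraries. The 2 called lower were CIDEC (log2 fold change -0.88 ± 0.21, edgeR adjusted p 0.00585) and PPARG (-0.49 ± 0.04, adjusted p 6.55e-07). Over all genes tested, 17.9% were higher and 15.8% lower. The adipocyte list was thus mixed in cocultivated libraries, with some members high and called higher, 2 called lower and others at or near 0. Its part in the results on the lipase axis was not tested.

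Markers of other cell types were mixed as well, beside 17.9% of all tested genes called higher and 15.8% called lower. The 12 stromal and fibroblast markers summed to 6.25 to 8.451 CPM in cocultivated and 13.69 to 14.98 CPM in non-cocultivated libraries, with 4 of 6 tested markers lower and none higher, and POSTN, CXCL12 and THY1 never above 3 counts. The 10 blood cell and macrophage markers summed to 0.699 to 0.981 CPM in cocultivated and 1.74 to 3.62 CPM in non-cocultivated libraries, and CD163, AIF1, TYROBP and CD3E had no count anywhere. LYZ, the only 1 of them tested, was lower (log2 fold change -1.95 ± 0.25, edgeR adjusted p 5.58e-05). The 8 endothelial markers summed to 20.39 to 27.96 CPM in cocultivated and 32.84 to 45.11 CPM in non-cocultivated libraries, with VWF and EMCN never above 3 counts. Of the 5 tested endothelial markers TEK and TIE1 were higher (log2 fold changes 0.86 and 1.21) and KDR was lower (-1.23), with 10.3 ± 3.15 CPM in cocultivated and 24.1 ± 3.59 CPM in non-cocultivated cells. Of the 6 markers listed for the line, 5 were lower in cocultivated cells (log2 fold changes of -0.94 for KRT8, -1.001 for HOXB13, -0.69 for CDH1, -0.61 for KRT18 and -0.14 for EPCAM) and vimentin, not an epithelial gene, was not called. The part of these differences in the results on the lipase axis was not tested.

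ANGPTL2 (ENSG00000136859), a secreted relative that acts in inflammation and does not inhibit the lipase, went the other way. It had 1.314, 1.367, 0.8829, 1.22 and 1.278 CPM in cocultivated cells, against 1.988, 1.821, 1.073, 1.875 and 1.781 CPM in non-cocultivated cells. Within each batch the cocultivated value was the lower, with a ratio between 0.651 and 0.823, but the groups overlapped because the non-cocultivated library of batch 3 was low. ANGPTL2 averaged 1.21 ± 0.192 CPM in cocultivated and 1.71 ± 0.363 CPM in non-cocultivated cells (SD, n = 5 each), a log2 fold change of -0.49 ± 0.17 with an edgeR adjusted p of 0.0431. The call was lost when any of 8 libraries was left out (cocultivated replicates 2, 3, 4 and 5 and non-cocultivated replicates 1, 2, 4 and 5), with adjusted p between 0.0542 and 0.0961. These fits did not pair the libraries of a batch. With the batch as a block and all libraries, the log2 fold change of ANGPTL2 was -0.49 ± 0.11 (edgeR adjusted p 0.00641). By TPM, the values were 0.6, 0.8, 0.64, 0.71 and 0.68 in cocultivated and 1.51, 0.99, 0.47, 0.79 and 0.98 in non-cocultivated libraries, so that batch 3 alone ran in the opposite direction on that scale. RALGPS1, a protein-coding gene on the opposite strand that overlaps ANGPTL2, had 2.68 ± 0.384 CPM in cocultivated and 2.65 ± 0.335 CPM in non-cocultivated cells.

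The other angiopoietin-like genes were too low to test. Of the 8 in the family list, only ANGPTL4 and ANGPTL2 passed the filter. ANGPTL1 did not exceed 7 counts in any library, ANGPTL6 did not exceed 12.57, and ANGPTL5, ANGPTL7 and ANGPTL8 had at most 3. ANGPTL8, a regulator of the lipase of heart and muscle, was therefore under the floor in both groups.

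LPL (ENSG00000175445) itself was not detectable at this depth. Cocultivated libraries held 0, 1, 1, 0 and 0 counts of LPL and non-cocultivated libraries 1, 1, 0, 0 and 2. All 10 values lie under the floor of 3 counts, so no fold change is given. In the 5 libraries with a count, the length that RSEM gave for the gene matched a single transcript to within 0.01 base. It was the 2254-base transcript LPL-208, annotated to undergo nonsense-mediated decay, in 3 libraries, the 560-base LPL-202 in 1 and the 463-base retained intron transcript LPL-205 in 1. None of these counts was placed on LPL-207, at 3565 bases the longest coding transcript.

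LIPG (ENSG00000101670), the endothelial lipase that prefers HDL phospholipids and that ANGPTL4 can also inhibit, was close to the floor. Its expected counts were 4.35, 8.16, 4.18, 11.07 and 11.23 in cocultivated libraries and 11.95, 10.18, 8.01, 8.03 and 6.1 in non-cocultivated libraries. The groups overlapped over most of their range, with neither group higher in all batches. Without a filter on low counts its log2 fold change was -0.09 ± 0.37 (edgeR adjusted p 0.9265 over 32996 genes). The expected counts were fractional in all 10 libraries, which means that LIPG shared its reads with other genes, so this level is uncertain.

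Other genes of the sn-1 lipase family, which share the fold of LPL, gave no call in the 2 that could be tested out of 10. LIPH, a phosphatidic acid phospholipase, had 3.80 ± 0.257 CPM in cocultivated and 4.52 ± 0.602 CPM in non-cocultivated cells (log2 fold change -0.25 ± 0.10, edgeR adjusted p 0.0719). At an unadjusted p under 0.05 LIPH was the only one. With non-cocultivated replicate 2 left out 1 of the 2 was called lower, and 1 also with scaling by library totals. PLA1A, a phosphatidylserine phospholipase, had a log2 fold change of -0.35 ± 0.26 (adjusted p 0.334). The cofactors and apolipoproteins, with 2 of 11 tested (APOC1 and APOE), gave no call either, and none had an unadjusted p under 0.05. GPIHBP1, which carries LPL across the capillary wall, and APOC2, its obligate activator, had at most 1 count in any library. Neither LPL nor its carrier nor its activator was therefore measurable in the cultures in which ANGPTL4 was high.

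LMF1 (ENSG00000103227), the membrane protein of the endoplasmic reticulum that lets LPL and related lipases fold, was slightly higher. It had 6.748, 6.691, 5.583, 5.878 and 9.521 CPM in cocultivated cells, against 5.288, 4.65, 4.385, 5.102 and 6.182 CPM in non-cocultivated cells. The cocultivated library was the higher in every batch, by 1.15 to 1.54 times, while the groups overlapped across batches. LMF1 averaged 6.88 ± 1.56 CPM in cocultivated and 5.12 ± 0.692 CPM in non-cocultivated cells (SD, n = 5 each), with a log2 fold change of 0.43 ± 0.14 and an edgeR adjusted p of 0.0333. Leaving out cocultivated replicate 2 or 5 or non-cocultivated replicate 2, 3 or 4 ended the call, with adjusted p of 0.0551 to 0.0797, in fits that did not pair the libraries of a batch. With the batch as a block and all libraries, the log2 fold change of LMF1 was 0.42 ± 0.08 (edgeR adjusted p 0.00167).

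LMF2 (ENSG00000100258), a relative of LMF1 whose role is less well known, did not pass the test. Cocultivated libraries held 29.04, 29.67, 26.96, 27.13 and 35.24 CPM of LMF2, against 24.08, 26.35, 27.07, 26.08 and 29.17 CPM in non-cocultivated libraries. The cocultivated value was the higher in 4 of 5 batches and practically equal in batch 3, where the ratio was 0.996. The log2 fold change was 0.16 ± 0.08 (edgeR adjusted p 0.128), and with the batch as a block it was 0.16 ± 0.05 (adjusted p 0.0252), which passes the threshold.

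Of the 15 genes listed for lipase folding and degradation in the endoplasmic reticulum, LMF1 and LMF2 among them, all were tested, 9 were higher and none lower in cocultivated cells. Their median log2 fold change was 0.21, beside -0.01 over all 15690 genes tested, of which 2801 were higher and 2478 lower. With the batch as a block, 14 of the 15 were called higher, in a fit that called 3478 of all genes higher and 3487 lower. The count called higher was 7 with scaling by library totals and under both TPM fits, and 8 with no filter on low counts. HSPA5, the chaperone BiP, had 1704 ± 266 CPM in cocultivated and 999 ± 22.7 CPM in non-cocultivated cells (log2 fold change 0.77 ± 0.09, edgeR adjusted p 1.85e-05). SEL1L, the adaptor of the degradation complex that helps LPL leave the endoplasmic reticulum, had 204 ± 6.24 CPM in cocultivated and 159 ± 9.02 CPM in non-cocultivated cells (log2 fold change 0.36 ± 0.04, adjusted p 4.25e-05).

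FURIN (ENSG00000140564), the convertase of the secretory pathway that cuts LPL, LIPG and ANGPTL4 at basic residues, rose by a modest and even amount. It had 22.78, 22.44, 23.27, 20.5 and 23.32 CPM in cocultivated cells, against 14.81, 14.59, 14.59, 14.62 and 13.99 CPM in non-cocultivated cells. The groups did not overlap and each was tight, with the lowest cocultivated value in batch 4 and the lowest non-cocultivated one in batch 5. FURIN averaged 22.5 ± 1.16 CPM in cocultivated and 14.5 ± 0.309 CPM in non-cocultivated cells (SD, n = 5 each), a log2 fold change of 0.63 ± 0.05 with an edgeR adjusted p of 6.17e-07. The ratio within batches was 1.40 to 1.67.

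Among the 9 proprotein convertases listed, 7 were tested, of which 3 were higher (FURIN, PCSK1 and PCSK7) and 1 lower (PCSK6), with a median log2 fold change of 0.05. Over all tested genes, 17.9% were higher and 15.8% lower, with a median of -0.01. PCSK1, the convertase of neuroendocrine granules, had 1.14 ± 0.273 CPM in cocultivated and 0.251 ± 0.138 CPM in non-cocultivated cells (log2 fold change 2.21 ± 0.33, edgeR adjusted p 1.85e-04). PCSK6, also named PACE4, which cuts LPL and LIPG too, had 4.24 ± 0.393 CPM in cocultivated and 6.65 ± 0.513 CPM in non-cocultivated cells (log2 fold change -0.65 ± 0.08, adjusted p 6.44e-05). PCSK7, named for completeness after its values were seen, differed by 0.16 ± 0.04 on the log2 scale (adjusted p 0.00924), and 4 alternatives ended that call (adjusted p up to 0.562), scaling by library totals and the TPM fits among them. The lower count was 3 with the batch as a block, under DESeq2 and with library totals, and 2 with RLE size factors, with no filter, under both TPM fits and without cocultivated replicate 5, non-cocultivated replicate 3 or non-cocultivated replicate 4. FURIN and PCSK6, which overlap in substrates, thus moved in opposite directions.

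VLDLR (ENSG00000147852), the receptor that takes up triglyceride-rich lipoproteins and binds LPL, had the second strongest change of the 9 genes. The 250 bases before its start in RefSeq (GRCh38.p14, chr9:2621537-2621786, forward strand) are given because VLDLR was, besides ANGPTL4, the only one with at least a 2-fold change. Capitals mark 2 overlapping GGGCGG matches on the reverse strand, at 59 and 55 bases before the start.
VLDLR promoter: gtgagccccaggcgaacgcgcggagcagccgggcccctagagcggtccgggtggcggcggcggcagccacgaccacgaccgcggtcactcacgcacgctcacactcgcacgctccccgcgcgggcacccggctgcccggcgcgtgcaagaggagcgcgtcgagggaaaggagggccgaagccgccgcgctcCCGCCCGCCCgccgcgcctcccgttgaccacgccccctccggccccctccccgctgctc
None of the other 5 motifs searched in the ANGPTL4 window, from the TATA box to the PPAR direct repeat, was found here, and the window has 78.8% G and C, against 68.8% in that of ANGPTL4. RefSeq promoter windows were matched for 8 of the 9 genes.

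Cocultivated libraries held 24.99, 22.95, 19.63, 18.26 and 23.63 CPM of VLDLR, against 7.82, 6.296, 5.625, 5.767 and 5.065 CPM in non-cocultivated libraries. Every cocultivated value was more than double every non-cocultivated one. VLDLR averaged 21.9 ± 2.83 CPM in cocultivated and 6.12 ± 1.05 CPM in non-cocultivated cells (SD, n = 5 each), a ratio of 3.58. The log2 fold change was 1.84 ± 0.12 (edgeR adjusted p 1.73e-07), the 89th highest of the 15690 genes. The ratio within batches was lowest in batch 4, at 3.17, and highest in batch 5, at 4.66. The antisense gene VLDLR-AS1 had 0.342 ± 0.130 CPM in cocultivated and 0.0776 ± 0.0399 CPM in non-cocultivated cells and was too low to test.

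LRP1 (ENSG00000123384), a large endocytic receptor for lipoprotein remnants, LPL and many other ligands, was higher in all batches but with a wide spread. It had 52.45, 39.17, 49.24, 35.14 and 62.46 CPM in cocultivated cells, against 43, 23.27, 21.9, 24.32 and 24.15 CPM in non-cocultivated cells. The groups overlapped only through the non-cocultivated library of batch 1, which lay above the cocultivated libraries of batches 2 and 4. LRP1 averaged 47.7 ± 10.9 CPM in cocultivated and 27.3 ± 8.81 CPM in non-cocultivated cells (SD, n = 5 each), with a log2 fold change of 0.80 ± 0.19 and an edgeR adjusted p of 0.00638. Without non-cocultivated replicate 1 the log2 fold change was 1.02 (adjusted p 1.16e-04). The ratio within batches reached from 1.22 in batch 1 to 2.59 in batch 5. STAT6, a protein-coding gene that overlaps LRP1 on the opposite strand, had 24.6 ± 1.15 CPM in cocultivated and 17.8 ± 1.04 CPM in non-cocultivated cells (log2 fold change 0.52 ± 0.05, adjusted p 5.14e-06), a much smaller spread than that of LRP1.

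**Figure D3:**
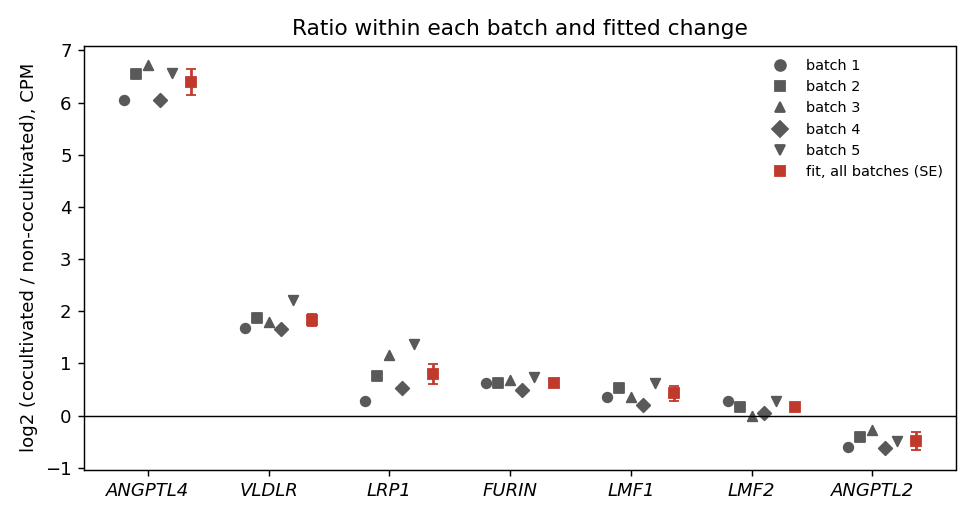
Log2 ratio of CPM, cocultivated over non-cocultivated, within each of the 5 batches (grey symbols) beside the fitted log2 fold change with its SE (red) for the 7 tested genes. ANGPTL4 lies between 6.05 and 6.72 and LRP1 spreads from 0.29 to 1.37, while ANGPTL2 is below 0 in all 5 batches.

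The LDL receptor family as a whole did not follow VLDLR and LRP1. Of 19 listed receptors and adaptors 18 were tested, 3 were higher, VLDLR and LRP1 among them, 8 were lower, and the median log2 fold change was -0.08. The shares over all tested genes were 17.9% higher and 15.8% lower, with a median of -0.01. LRP8, the receptor most similar to VLDLR, had 81.7 ± 11.3 CPM in cocultivated and 82.6 ± 12.0 CPM in non-cocultivated cells (log2 fold change -0.02 ± 0.10, edgeR adjusted p 0.929). MYLIP, also named IDOL, the ubiquitin ligase that sends VLDLR and LRP8 to degradation, had 2.83 ± 0.278 CPM in cocultivated and 11.97 ± 1.18 CPM in non-cocultivated cells (log2 fold change -2.08 ± 0.09, adjusted p 8.86e-09). Of these targets of MYLIP, the transcript of VLDLR was called higher and that of LRP8 was not called. LRP8 was chosen after its values were seen.

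Heparan sulfate proteoglycans hold LPL and ANGPTL4 at the cell surface and in the matrix. Of 19 genes listed for them 16 were tested, 10 were higher and 1 lower, with a median log2 fold change of 0.23. Over all tested genes, 17.9% were higher and 15.8% lower, with a median of -0.01. HPSE, heparanase, which cuts the heparan sulfate chains, had 16.1 ± 0.511 CPM in cocultivated and 8.17 ± 0.445 CPM in non-cocultivated cells (log2 fold change 0.98 ± 0.05, edgeR adjusted p 4.20e-08). SDC1, the syndecan that takes up lipoprotein remnants in liver, had 629 ± 4.01 CPM in cocultivated and 457 ± 15.8 CPM in non-cocultivated cells (log2 fold change 0.46 ± 0.04, adjusted p 1.38e-06). HSPG2, perlecan of the basement membrane, was the 1 gene called lower (-0.59 ± 0.21, adjusted p 0.0437) and is named after its values were seen. Leaving out cocultivated replicate 2, 3, 4 or 5 or non-cocultivated replicate 1 or 4 ended that call, with adjusted p of 0.0542 to 0.101. Of all 23 alternatives, 14 ended it (adjusted p up to 0.1165) and 9 kept it. Under DESeq2, limma-voom and both TPM fits the count of genes called lower in this list was 0.

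Integrins and matrix proteins bind the fibrinogen-like domain of ANGPTL4 and its relatives. Of 11 listed binding partners 6 were tested, 4 were higher and none lower, with a median log2 fold change of 0.54. Among all tested genes 17.9% were higher and 15.8% lower, and the median was -0.01. ITGB5, an integrin subunit that ANGPTL4 binds, had 165.8 ± 28.1 CPM in cocultivated and 58.9 ± 6.68 CPM in non-cocultivated cells (log2 fold change 1.49 ± 0.11, edgeR adjusted p 4.42e-07). The other 3 were ITGA5 (0.60 ± 0.06, adjusted p 4.74e-06), ITGAV (0.64 ± 0.10, adjusted p 2.09e-04) and ITGB1 (0.47 ± 0.05, adjusted p 8.07e-06), subunits of the receptors for fibronectin and vitronectin.

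The 12 transcription factors listed as acting on the ANGPTL4 gene were all tested, with 5 higher, 3 lower and a median log2 fold change of 0.16. For all tested genes the shares were 17.9% higher and 15.8% lower, and the median was -0.01. PPARD, the fatty acid receptor that induces ANGPTL4 in many cell types, had 75.4 ± 4.47 CPM in cocultivated and 43.95 ± 0.368 CPM in non-cocultivated cells (log2 fold change 0.78 ± 0.04, edgeR adjusted p 5.11e-08). PPARG, the receptor that drives fat cell formation, had 88.7 ± 3.38 CPM in cocultivated and 124.6 ± 2.79 CPM in non-cocultivated cells (log2 fold change -0.49 ± 0.04, adjusted p 6.55e-07). For PPARA, the receptor of fasting liver, the log2 fold change was 0.33 ± 0.13 (adjusted p 0.0589). The other 4 called higher, with smaller changes, were EPAS1 at 0.32, SMAD3 at 0.30, FOXO1 at 0.39 and TFEB at 0.52, and the other 2 called lower were the hypoxia factor HIF1A at -0.28 and the glucocorticoid receptor NR3C1 at -0.19. Those 6 and PPARA are named after their values were seen, and PPARD and PPARG moved in opposite directions.

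**Figure D4:**
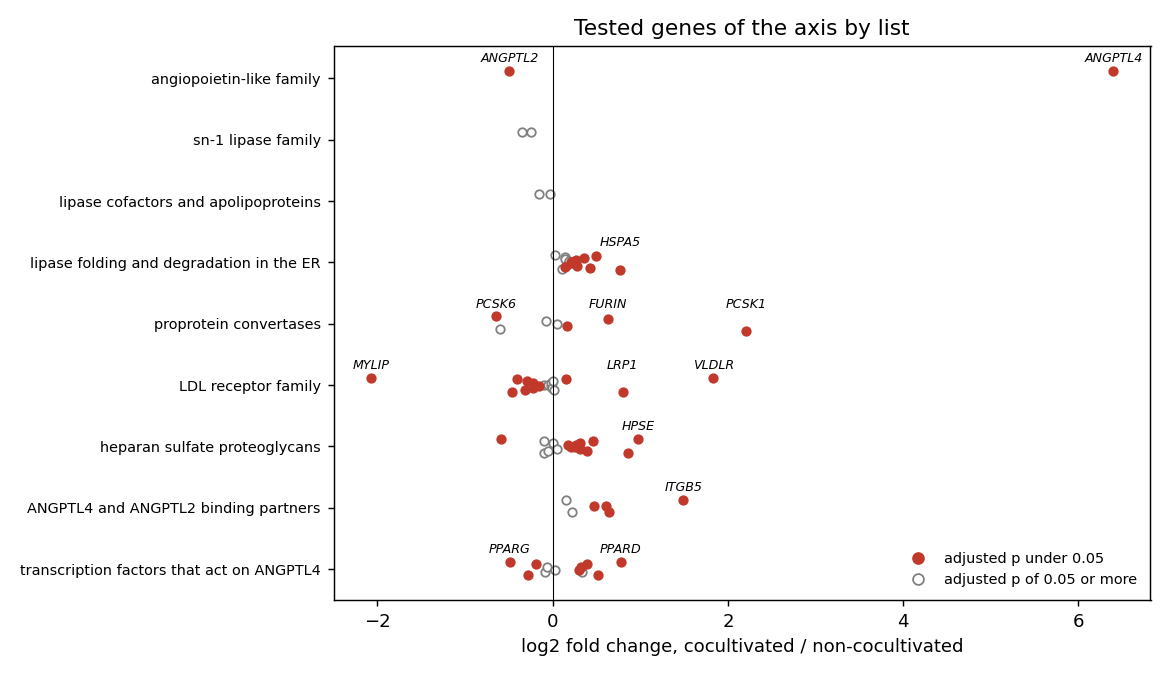
Log2 fold change, cocultivated over non-cocultivated, of every tested gene of the 9 lists of the lipase axis, 1 row a list, with small vertical offsets for legibility. Filled circles have an adjusted p under 0.05 and open ones do not; ANGPTL4, VLDLR, PCSK1 and ITGB5 stand to the right and MYLIP, at -2.08, to the left.

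Levels of the 9 genes can be set against each other only per length. In cocultivated cells the order by mean TPM (± SD, n = 5) was ANGPTL4 at 161.9 ± 45.2, LMF2 at 16.9 ± 1.47, FURIN at 7.95 ± 0.732, VLDLR at 7.59 ± 1.22, LRP1 at 6.22 ± 1.92, LMF1 at 4.75 ± 1.22 and ANGPTL2 at 0.686 ± 0.0760. In non-cocultivated cells it was LMF2 at 16.0 ± 0.817, FURIN at 5.43 ± 0.259, LRP1 at 3.72 ± 1.12, LMF1 at 3.57 ± 0.826, VLDLR at 2.24 ± 0.491, ANGPTL4 at 2.02 ± 0.512 and ANGPTL2 at 0.948 ± 0.378. LIPG and LPL were last in both groups, each with a mean under 0.1 TPM. Neighbours from FURIN to LMF1 overlapped in cocultivated cells, and those from FURIN to ANGPTL2 overlapped in non-cocultivated cells. ANGPTL4 thus held the first place with adipocytes and place 6 without them, while the order of the other genes hardly moved apart from VLDLR.

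ANGPTL4 alone made up 74.81% to 82.81% of the summed TPM of the 9 genes in cocultivated libraries, against 4.62% to 7.72% in non-cocultivated libraries. The sum was 150.1 to 285.3 TPM in cocultivated libraries and 31.31 to 39.09 TPM in non-cocultivated libraries. In the non-cocultivated libraries LMF2 held the largest share, with 40.01% to 51.63%.

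The length that RSEM gives for a gene is the mean over its transcripts, weighted by their abundance, and moves when the mix of transcripts changes. It did not change detectably for any of the 7 tested genes: none passed the threshold, none had an unadjusted p under 0.05 (limma on log2 length), and 0.0678% of the 13283 genes fitted were called. The mean length of ANGPTL4 transcripts was 1826 ± 8.39 bases in cocultivated and 1830 ± 27.2 bases in non-cocultivated libraries (SD, n = 5 each), a log2 change of -0.00 ± 0.01 (SE, limma adjusted p 0.995). ANGPTL2 had the smallest p of the 7, with a log2 change of -0.17 ± 0.16 (unadjusted p 0.327).

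The genes whose profile over the 10 libraries was most like that of ANGPTL4 were AKR1C1, PDK4 and AKR1C2, with root mean square differences of centred log2 CPM of 0.972, 1.14 and 1.34 among 12977 genes with a mean of at least 1 CPM. None was close, since their log2 fold changes were 4.72, 4.20 and 4.08 and that of ANGPTL4 was 6.40. PDK4 encodes a kinase that blocks the entry of pyruvate into mitochondria, and AKR1C1 and AKR1C2 encode near-identical aldo-keto reductases, so that the split of reads between those paralogs is uncertain. Nearest to VLDLR were SCNN1G, a subunit of the epithelial sodium channel, at 0.166, the kinase gene STK32A at 0.185 and the glycosyltransferase gene GALNT12 at 0.194. Their log2 fold changes were 1.81 ± 0.10, 1.61 ± 0.13 and 1.96 ± 0.10, beside 1.84 ± 0.12 for VLDLR. The log2 fold change itself enters this measure. VLDLR thus had near neighbours on it, and ANGPTL4, with the highest log2 fold change of all tested genes, had none.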

How the data were processed

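Messenger RNA of 10 PC3 libraries was sequenced with a stranded kit, per the labels' protocols. The deposited expected counts and TPM values, and the gene length, come from RSEM 1.3.3 on Bowtie2 2.4.4 alignments, per the submitters' processing notes and the file headers. No source used here names the genome build or annotation, and transcript names were matched to GENCODE v29. Per the labels, groups and batches were assigned to libraries. Expected counts were rounded, filtered with edgeR 4.0.16 (minimum count 10, minimum total 15), scaled by TMM (factors 0.953 to 1.04) and fitted with the quasi-likelihood test without batch, in R 4.3.3. CPM use TMM-scaled totals, except for sums of markers, the floor and the CPM of RAB11B-AS1, STAT6, RALGPS1 and VLDLR-AS1. These exceptions use unscaled library totals, while the printed log2 fold changes of RAB11B-AS1 and STAT6 come from the TMM-scaled fit. DESeq2 1.42.0, limma 3.58.1 (voom, and log2 of TPM with pseudocounts 1 and 0.1), other scalings, no filter, the batch as a block and libraries or batches left out were alternatives. Libraries with 1 batch number share a batch in the labels, so the numbers pair them; deviations of paired libraries correlated at -0.02 to 0.33 and those of other pairs at -0.24 to 0.14. On simulated data without a batch effect, 100 genes were changed by a log2 of 1 and 100 by 2, among 15690 genes. The test recovered 88% of the changes of 1 and 98% of the changes of 2, and 4.62% of its calls were false. Smaller changes were not simulated. No 2 libraries of a group agreed within sampling noise. Named besides the 9 genes were, in each list, the 2 called genes with the smallest p, overlapping genes, the 3 nearest profiles of genes changed at least 2-fold, and the 3 most abundant markers of each cell type; not all of these are printed, and scarce markers and others printed outside this rule were chosen after their values were seen. The 9 genes and the lists were chosen with earlier results of these data known, and some listed genes are not reported here. The floor covers counting error only.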

Additional observations from a re-analysis of the deposited data

Results flagged for a closer look

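In 3 of the 18 sets of 5 CPM values (the 9 genes in each group), 1 library lay apart from the other 4 by more than Dixon's 95% criterion (a gap of over 0.71 of the range), and chance alone marks about 1 set in 20. LRP1 in non-cocultivated replicate 1 stood at 43 CPM, with a gap of 0.885 of the range to the next library. ANGPTL2 in non-cocultivated replicate 3 stood at 1.073 CPM, below the other 4, with a gap of 0.775. FURIN in non-cocultivated replicate 5 stood at 13.99 CPM, below the other 4, with a gap of 0.722, in a group whose whole spread is small.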

How the results depend on the processing

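ANGPTL4, VLDLR, LRP1 and FURIN kept their direction and their call under all 23 alternatives, with log2 fold changes of 5.73 to 6.54, 1.41 to 1.94, 0.60 to 1.02 and 0.47 to 0.66. With the batch as a replicate block ANGPTL4 was at 6.39 ± 0.09, and LMF2 gained a call (adjusted p 0.0252), which raised the members called higher from 5 to 6; the block ended no member's call. The call of LMF1 was lost under 12 alternatives (adjusted p up to 0.136) and that of ANGPTL2 under 15 (adjusted p up to 0.287), always in the same direction; the cause was not tested. The count of members called lower was therefore 0 under limma-voom, under both TPM fits and without batch 1, 2, 4 or 5, and 0 to 1 when single libraries were left out. Genes called higher over all genes numbered 1740 and 1733 under limma on log2 TPM with pseudocounts 1 and 0.1. Scaling by library totals gave 2216 higher and 3555 lower genes with a median log2 fold change of -0.06 in place of -0.01. No member's transcript length was called under any of 12 alternatives. Checks of the other named genes and of the list counts were added after seeing the data: of 28 genes of the axis lists and nearest profiles, 4 lost a call under some alternative, PCSK7, HSPG2 and TFEB among them, and none reversed. RALGPS1, which overlaps ANGPTL2 and was never called, turned to -0.007 without non-cocultivated replicate 5 and -0.01 without batch 5. LPL and LIPG are limited by depth.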
